A study of Mus musculus with 6 samples.

Results

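The genes described here carry lipids between cells or take up the particles that carry them. They are the secreted carriers Apoe, Clu, Apod, Pltp and Ptgds and 4 receptors of the low-density lipoprotein (LDL) receptor family, Lrp1, Lrp2, Lrp8 and Vldlr. They were chosen by gene symbol, and all 9 were found among the 24354 gene names of the table. The choroid plexus (ChP) is the secretory epithelium of the brain ventricles, and its mRNA was collected by TRAP, in which a tagged ribosomal subunit is pulled down together with the mRNA bound to it. All samples came from FoxJ1:cre x bacTRAP (EGFP:L10a) mice, in which Cre under the Foxj1 promoter turns on the EGFP tag on the ribosomal protein L10a. Foxj1 is a gene of cells with motile cilia, so that ciliated cells of the ventricle wall could carry the tag as well. The 3 adult samples were taken at 60 days of age and the 3 embryonic samples at E16.5, and neither age had a treatment. The study's methods speak of pools of 3 adult mice or 3 litters for each sample, and the series text of 3 mice at each age. It is not settled how many animals stand behind a sample, and p-values measure only the spread between these samples. In bulk samples of this kind, a smaller number of cells of a type and less mRNA per cell cannot be told apart.

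Lipids travel through cerebrospinal fluid (CSF) as small particles that resemble high-density lipoprotein. Apolipoproteins such as APOE and clusterin (apolipoprotein J) form their protein coat, PLTP moves phospholipid between particles, and the lipocalins APOD and PTGDS hold small hydrophobic molecules in a barrel-shaped pocket. Receptors of the LDL receptor family bind such particles and many other ligands at the cell surface, take them into endosomes and return to the membrane, and some of them also pass on the signal of the secreted protein reelin.

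The ages separated in 4 of the 9 genes. Ptgds and Lrp1 were higher in every adult sample than in every E16.5 sample, while Pltp and Lrp2 were lower. Only the rise of Ptgds passed the test, which was limma on log2(FPKM + 1) across all 11601 genes with a mean FPKM above 1, with Benjamini-Hochberg adjustment to 0.05. FPKM divide the fragments of a gene by transcript length and by the sample's mapped reads, so that levels can be set side by side between genes. Changes are adult minus E16.5 throughout. All 9 genes passed the filter on low values, Apod through a single adult sample and Lrp2 through E16.5 alone. The share of all genes tested that limma called higher in adult was 2.12%, and 8.83% were called higher at E16.5. The adults were all above the embryos in 7.39% of the genes tested and all below in 31.0%. Of the 9, 2 lay above, 2 below and 5 overlapped. The median log2 change of the 9 was 0.17, and that of all genes tested was -0.86. Over the 6562 genes above 0 in all 6 samples the median was -0.38.

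The number of mapped reads was not given with the table. Low FPKM values of genes with a single transcript lay near whole multiples of a step, which is what 1 read is worth. Per kilobase, 1 read was worth 0.114 to 0.324 FPKM in the adult samples and 0.0636 to 0.0807 FPKM in the E16.5 samples. Adult replicate 3 was the shallowest library. Mir6236, annotated as a microRNA gene, took 32.7% to 51.7% of the summed FPKM in the adult samples and 13.3% to 15.0% at E16.5. Of 81 genes of cytosolic ribosomal proteins, which every cell uses, 28 to 51 were listed at 0 in an adult sample and 12 to 17 in an E16.5 sample. An exact 0 in this table can therefore be a failed estimate, and such genes are described as listed at 0. Markers of ChP epithelium were above 1 FPKM in 14 of 14 genes in each adult sample and in 12 to 13 at E16.5. Ttr, the transthyretin gene that is among the defining genes of this epithelium, was at 0 in all of the E16.5 samples and at 20922 to 31302 FPKM in the adults. Of 12 markers of macrophages, which also make Apoe, 5 (Cd68, Aif1, Tyrobp, Fcer1g and C1qc) were listed at 0 in all 6 samples, while others such as Csf1r and C1qa reached 3.58 and 6.98 FPKM at E16.5. Their sum was 0.0695 to 7.35 FPKM in adult and 0.584 to 8.48 FPKM at E16.5, and their part in the Apoe values was not tested.

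Promoter sequences are shown for the 4 genes in which the ages separated, as the 250 bases before the start of transcription in RefSeq (GRCm38.p6, the assembly of mm10), all on the minus strand. Capitals mark any of 6 short motifs searched on both strands, namely the TATA box with the letters TATAAA, the CCAAT box, the GC box with the letters GGGCGG, the AP-1 site with the letters TGACTCA, the OTX site with the letters TAATCC and the E-box with the letters CACGTG. The motifs were chosen with the sequences known.
Ptgds, chr2:25469750-25469999: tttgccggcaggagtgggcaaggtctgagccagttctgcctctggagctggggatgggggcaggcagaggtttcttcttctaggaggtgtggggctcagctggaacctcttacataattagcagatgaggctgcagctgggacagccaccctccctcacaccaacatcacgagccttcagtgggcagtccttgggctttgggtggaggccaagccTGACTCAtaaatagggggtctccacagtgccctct
Lrp1, chr10:127621149-127621398: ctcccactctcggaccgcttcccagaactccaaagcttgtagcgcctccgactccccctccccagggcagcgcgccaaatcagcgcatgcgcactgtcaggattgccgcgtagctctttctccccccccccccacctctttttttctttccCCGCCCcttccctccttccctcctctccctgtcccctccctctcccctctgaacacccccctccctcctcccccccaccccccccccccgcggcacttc
Pltp, chr2:164857709-164857958: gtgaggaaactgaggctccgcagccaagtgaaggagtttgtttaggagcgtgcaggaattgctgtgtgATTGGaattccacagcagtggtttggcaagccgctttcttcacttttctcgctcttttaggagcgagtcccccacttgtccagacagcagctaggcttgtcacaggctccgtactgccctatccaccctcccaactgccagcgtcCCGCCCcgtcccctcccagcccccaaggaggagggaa
Lrp2, chr2:69586030-69586279: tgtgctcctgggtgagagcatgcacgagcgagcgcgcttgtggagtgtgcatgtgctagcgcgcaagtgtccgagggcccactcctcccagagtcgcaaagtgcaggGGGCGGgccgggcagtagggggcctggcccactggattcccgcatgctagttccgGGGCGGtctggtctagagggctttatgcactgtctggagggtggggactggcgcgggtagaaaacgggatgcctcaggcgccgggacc
The windows differed in CpG dinucleotides, which were 2 in Ptgds, 9 in Pltp, 13 in Lrp1 and 18 in Lrp2, against a median of 6 in 32851 RefSeq windows of the same length. Ptgds held an AP-1 site 35 bases upstream, a motif found in 4.46% of all windows. The GC box, found in 32.7% of all windows, was held once by Lrp1, at 99 bases, and once by Pltp, at 37 bases. Lrp2 held it at 143 and 88 bases upstream. Pltp also held CCAAT at 182 bases (33.8% of all windows), and none of the 4 windows held the TATA box, the OTX site or the E-box (12.4%, 6.25% and 6.02% of all windows). A match of letters is a description of the window and not evidence of binding. RefSeq windows were matched for 8 of the 9 genes. Clu was not matched.

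**Figure D1:**
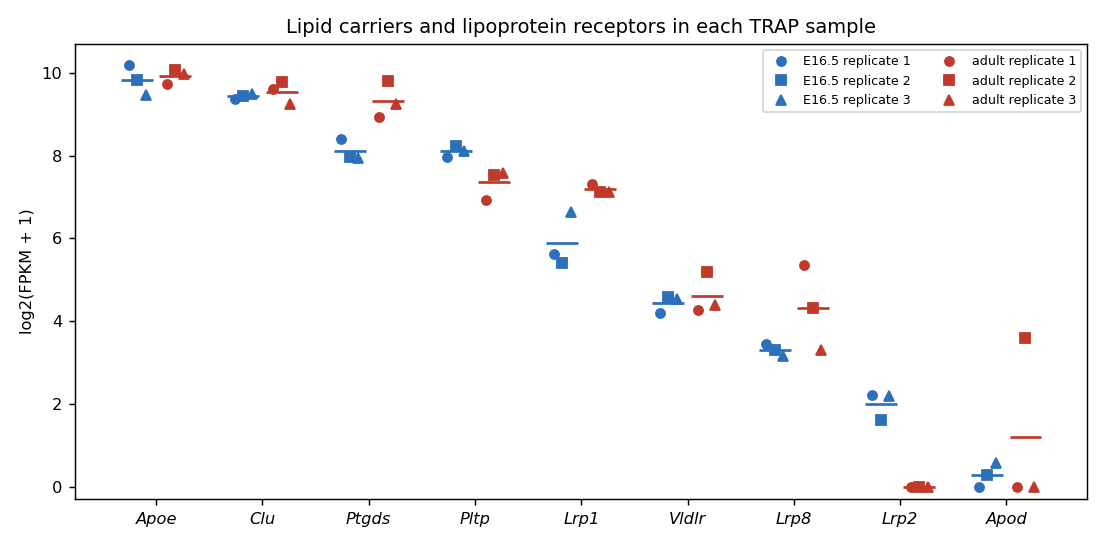
Level of each of the 9 genes as log2(FPKM + 1), ordered by the mean FPKM at E16.5, with 1 point per sample (blue E16.5, red adult, shape by replicate) and a bar at the mean of each age. Apoe and Clu overlap between the ages, Ptgds and Lrp1 lie higher in all 3 adult samples, Pltp lies lower, and Lrp2 is listed at 0 in the adults.

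Apoe, the main apolipoprotein of brain lipoproteins, was the most abundant of the 9 at both ages. The gene lies on the minus strand of mm10 chromosome 7, from 19696109 to 19699188. Its FPKM was 857, 1076 and 1000 in adult replicates 1, 2 and 3 and 1168, 912 and 702 in E16.5 replicates 1, 2 and 3. The adult values lay within the range of the embryonic ones. The log2 change was 0.10 (standard error 0.26, 95% interval -0.50 to 0.70, limma adjusted p = 0.809), so that these samples leave room for a change of either sign. Among all gene names, Apoe ranked 14, 23 and 18 by FPKM in the adult samples and 32, 38 and 46 at E16.5. Its change turned to -0.73 when each sample was rescaled to the same sum of FPKM and to -0.06 when Mir6236 was left out of that sum.

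Clu encodes clusterin, a secreted chaperone and apolipoprotein (chromosome 14, plus strand, 65968483 to 65981547). Its FPKM was 787, 882 and 605 in the adult samples and 662, 691 and 718 at E16.5. The embryonic samples were close together and lay inside the adult range. The log2 change was 0.12 (standard error 0.23, 95% interval -0.41 to 0.65, limma adjusted p = 0.746). It was -0.71 after rescaling to the same sum and -0.04 without Mir6236 in the sum. The ranks of Clu were 18, 32 and 42 in adult and 66, 57 and 42 at E16.5. The ratio of Clu to Apoe varied between samples of the same age, and its mean differed little between the ages. The log2 ratio of Clu to Apoe within a sample was -0.12, -0.29 and -0.72 in adult and -0.82, -0.40 and 0.03 at E16.5, a difference of 0.02 (two-sided exact permutation test over samples, p = 1, Benjamini-Hochberg p = 1 over 4 pairs, where the smallest p that 3 samples against 3 allow is 0.1).

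Ptgds was the gene of this group that rose. It encodes lipocalin-type prostaglandin D2 synthase, an enzyme and a carrier of small hydrophobic molecules that is abundant in CSF, and lies on the minus strand of chromosome 2 (25466709 to 25470046). Its FPKM was 486, 898 and 611 in adult and 339, 247 and 245 at E16.5, or 665 ± 211 against 277 ± 53.7 (SD, n = 3 each). The lowest adult sample was above the highest E16.5 sample. The mean level was 2.40 times as high in adult, and the log2 change was 1.23 (standard error 0.30, 95% interval 0.54 to 1.92, limma adjusted p = 0.0414). Ptgds ranked 36, 31 and 41 in adult against 155, 229 and 192 at E16.5, and its change was larger than that of 93.1% of the genes tested. The call was close to the threshold. Without adult replicate 2 the change was 0.99 (limma adjusted p = 0.0519), and without E16.5 replicate 1, 2 or 3 it was 1.38, 1.16 and 1.15 (limma adjusted p = 0.0941, 0.141 and 0.131). Rescaling to the same sum gave 0.40 (limma adjusted p = 0.419), and leaving Mir6236 out of that sum gave 1.07 (limma adjusted p = 0.0507).

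Apod, the second lipocalin, was near or at 0 in 5 of 6 samples. Apolipoprotein D is made by glia and fibroblasts in many tissues, and its gene lies on chromosome 16 (31296192 to 31314808, minus strand). Its FPKM was 0, 11.1 and 0 in adult and 0, 0.210 and 0.489 at E16.5. The 11.1 FPKM of adult replicate 2 were worth about 183 reads at the transcript's length, and the E16.5 values about 6 and 13 reads. The log2 change of 0.91 (standard error 1.01, adjusted p = 0.550 by limma) rested on that library, and without it the gene did not pass the filter on low values. The same library also listed Cldn5 and Tie1, markers of endothelium, at 9.48 and 8.22 FPKM, which were at most 0.147 FPKM in the other samples. These markers were named after their values were seen. Summed over 10 endothelial markers the level was 27.2 FPKM in adult replicate 2, 0.489 and 2.11 in the other adults and 12.7 to 40.9 at E16.5, and 3 of the 10 markers were above 1 FPKM in that library. Pecam1, a defining endothelial marker, was at 0.957 FPKM there and listed at 0 elsewhere. That library also had 9 of 12 markers of astrocytes and ependyma above 1 FPKM, against 3 and 2 in the other adults and 7 to 8 at E16.5, with S100b at 8.97 FPKM and at most 0.492 FPKM elsewhere. Of 13 markers of mesenchyme 7 were above 1 FPKM there, against 6 and 2 in the other adults and 8 to 9 at E16.5. Adult replicate 2 was also the deepest adult library, with 11340 genes above 0 against 9487 and 7599 in adult replicates 1 and 3. The markers of astrocytes and ependyma summed to 115 FPKM there, 88.9 FPKM in each other adult and 226 to 249 FPKM at E16.5. The parts of library depth and of other cells in the Apod value were not tested.

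Pltp, the phospholipid transfer protein, was lower in adult. Its gene lies on the minus strand of chromosome 2 (164839518 to 164857711). Its FPKM was 120, 185 and 192 in adult and 248, 301 and 275 at E16.5. The highest adult sample was below the lowest E16.5 sample, with 166 ± 39.4 against 275 ± 26.2 FPKM (SD, n = 3 each), so that the mean at E16.5 was 1.66 times the adult mean. The log2 change was -0.75 (standard error 0.27, 95% interval -1.38 to -0.12) with a limma adjusted p of 0.112, which did not pass. This change was 0.11 above the median of all genes tested and larger than that of 53.0% of them. It was below the median of -0.38 of the genes that, like Pltp, were above 0 in all 6 samples. Of all genes tested, 31.0% had all adult samples below all E16.5 samples. Of the 50-base stretches of its transcripts, 10.8% are shared with those of the overlapping gene Ctsa, whose FPKM was 44.6 to 52.5 in adult and 33.3 to 35.6 at E16.5. Pltp was above Ptgds in 2 of 3 samples at E16.5, where their means were close (275 and 277 FPKM), and below it in 3 of 3 adult samples.

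**Figure D2:**
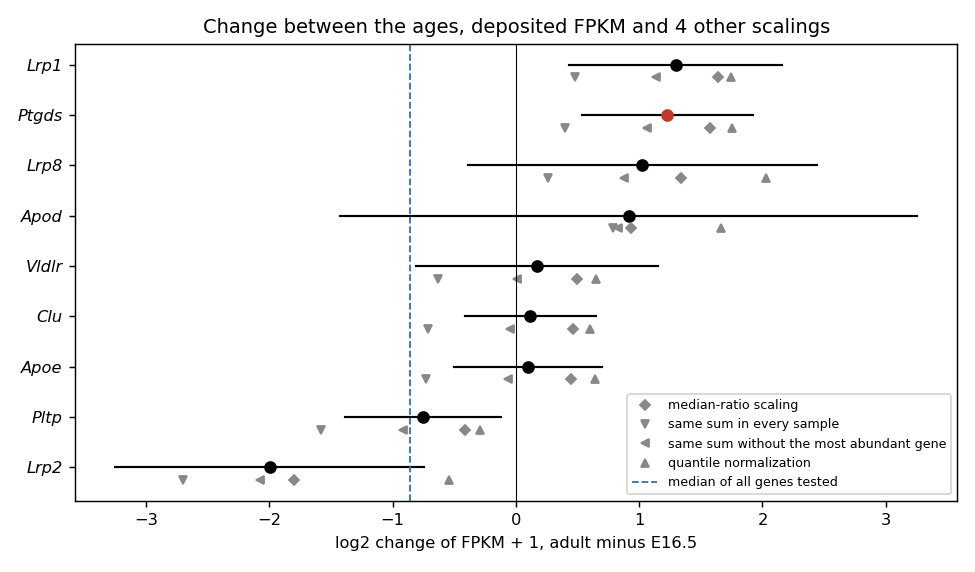
Log2 change of FPKM + 1 (adult minus E16.5) for the 9 genes, with the 95% interval from limma as a line, the called gene in red and 4 other scalings of the samples as grey symbols, and the median of all genes tested (-0.86) as a dashed line. Only Ptgds passed the adjusted threshold, and the symbols of Apoe, Clu and Vldlr lie on both sides of 0.

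Lrp1 was the most abundant of the 4 receptors. It encodes a very large endocytic receptor that takes up APOE-bearing particles, proteases and many other ligands (chromosome 10, minus strand, 127538161 to 127621148). Its FPKM was 159, 138 and 139 in adult and 48.5, 41.4 and 98.4 at E16.5. The adult samples were within 1.15 times of each other, and E16.5 replicate 3 was 2.38 times as high as E16.5 replicate 2. The means were 145 ± 11.5 and 62.8 ± 31.1 FPKM (SD, n = 3 each), a log2 change of 1.30 (standard error 0.37, 95% interval 0.43 to 2.16, limma adjusted p = 0.0636), which did not pass. Lrp1 ranked 189, 346 and 321 in adult and 1668, 2025 and 653 at E16.5. It passed under median-ratio scaling (1.64, limma adjusted p = 0.0402) and under quantile normalization (1.75, limma adjusted p = 0.0302), and its change was 0.48 (limma adjusted p = 0.437) after rescaling to the same sum. Without E16.5 replicate 3 it was 1.67 (limma adjusted p = 0.0573).

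Lrp2 encodes megalin, the giant receptor that, in kidney and in embryonic neuroepithelium, takes up lipid-binding and vitamin-binding proteins (chromosome 2, minus strand, 69424340 to 69586065). It was listed at 0 in all 3 adult samples and had 3.64, 2.03 and 3.53 FPKM at E16.5. All E16.5 samples were thus above all adult samples. At the length of its longest transcript (15460 bases), the E16.5 values were worth about 687, 487 and 785 reads, and a single read would have given 0.0168, 0.00744 and 0.0212 FPKM in the adult libraries. On the log2(FPKM + 1) scale the difference was -2.0 (standard error 0.54, 95% interval -3.25 to -0.75, limma adjusted p = 0.0541), and no fold change is given against a group listed at 0. The size depended on the pseudocount and the scaling, from -4.94 with a pseudocount of 0.1 to -0.55 under quantile normalization. The adjusted p was between 0.0258 and 0.532 over 14 alternatives, and the gene passed in 4 of them, with a pseudocount of 0.1, after rescaling to the same sum, with all genes kept whatever their level and in limma without a trend. Lrp2 passed the filter on low values through E16.5 alone, and its adult zeros may be failed estimates, so that these p-values are a description only. At E16.5, 3.07 ± 0.899 FPKM (SD, n = 3) placed Lrp2 between rank 9099 and rank 10193. The log2 ratio of Lrp2 to Lrp1 within a sample was -7.32, -7.12 and -7.13 in adult and -3.42, -3.81 and -4.45 at E16.5. With Lrp2 at 0 in the adults, the adult ratio was set by the pseudocount and Lrp1, so that the lack of overlap is a description. The difference was -3.30 with a pseudocount of 1 and -6.25 with one of 0.1.

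Lrp8 and Vldlr encode the apolipoprotein E receptor 2 and the very-low-density lipoprotein receptor, which are the receptors of reelin and also bind APOE. Lrp8 (chromosome 4, plus strand, 107802261 to 107876840) had 40.0, 18.8 and 8.83 FPKM in the adults and 9.82, 8.82 and 7.89 FPKM at E16.5. The adult samples spread over 4.53 times and the E16.5 samples over 1.24 times, and adult replicate 3 lay among the embryonic samples. The log2 change was 1.03 (standard error 0.61, 95% interval -0.39 to 2.44, limma adjusted p = 0.282), and without adult replicate 1, the highest, it was 0.51 (limma adjusted p = 0.556). Vldlr (chromosome 19, plus strand, 27216484 to 27254231) had 18.3, 35.6 and 19.8 FPKM in the adults and 17.4, 23.1 and 22.2 FPKM at E16.5. Its ages overlapped, with a log2 change of 0.17 (standard error 0.42, 95% interval -0.81 to 1.15, limma adjusted p = 0.805). Without adult replicate 2 the change of Vldlr was -0.12, and after rescaling to the same sum it was -0.63. Vldlr was the more abundant receptor of the pair in every E16.5 sample and in adult replicates 2 and 3. The log2 ratio of Vldlr to Lrp8 was -1.09, 0.88 and 1.08 in adult and 0.77, 1.30 and 1.38 at E16.5, a difference of -0.86 that did not pass (two-sided exact permutation test, p = 0.3, Benjamini-Hochberg p = 0.6 over 4 pairs). For the lipocalins, the log2 ratio of Apod to Ptgds differed by -0.32 between the ages (p = 0.8 in the same exact permutation test, Benjamini-Hochberg p = 1). Apod was listed at 0 in adult replicates 1 and 3 and in E16.5 replicate 1. The ratios of these samples were set by the pseudocount and Ptgds, so that this comparison is a description.

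**Figure D3:**
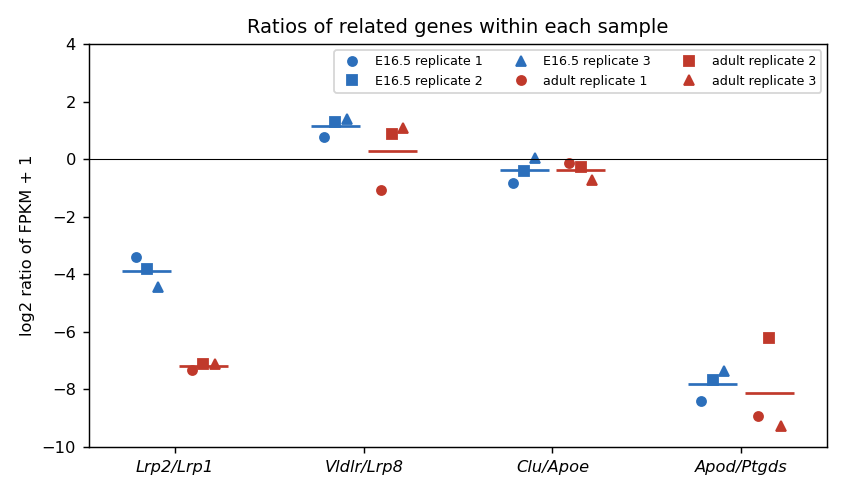
Log2 ratio of FPKM + 1 between related genes of 1 sample, with 1 point per sample (blue E16.5, red adult, shape by replicate) and a bar at the mean of each age. The adult points of Lrp2/Lrp1 (-7.32 to -7.12) are a floor set by the pseudocount, since Lrp2 is listed at 0 there, the E16.5 points are at -4.45 to -3.42, and the ages overlap for the other 3 ratios. The points of Apod/Ptgds in adult replicates 1 and 3 and in E16.5 replicate 1 are such a floor too, since Apod is listed at 0 there.

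By FPKM the order at E16.5 was Apoe, Clu, Ptgds, Pltp, Lrp1, Vldlr, Lrp8, Lrp2 and Apod. The ranges of Apoe and Clu overlapped, as did those of Ptgds and Pltp, and each other gene lay above the next in all 3 samples without overlap. In adult the order was Apoe, Clu, Ptgds, Pltp, Lrp1, Vldlr, Lrp8, Apod and Lrp2. Here neighbouring ranges were apart only between Ptgds and Pltp and between Lrp1 and Vldlr. Clu and Ptgds did not differ beyond their spread in adult, where Ptgds was the higher in 2 of 3 samples.

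Genes with the most similar pattern were sought as those with the smallest root mean square difference of centred log2(FPKM + 1) over the 6 samples, among the other 11600 genes tested. For Ptgds they were Itgav (0.12) and Fam73b (0.15), for Lrp1 Slc39a14 (0.07) and Zfp142 (0.17), for Lrp2 Cnn2 (0.09) and Slc25a26 (0.10), and for Pltp Atp6v0d1 and Snw1 (0.08 each). Apoe was nearest to Cipc (0.10) and Yipf4 (0.11), Clu to Upf1 (0.06) and Vps13d (0.07), Vldlr to Uba6 (0.11) and Ndufs1 (0.13), Apod to Arl10 (0.10) and Hhatl (0.16), and Lrp8 to Pdzrn4 (0.20) and Ctsc (0.25). Slc39a14 shared the high E16.5 replicate 3 of Lrp1, with 13.3 to 14.9 FPKM in the adults and 3.89, 3.20 and 10.1 FPKM at E16.5. With 6 samples such likeness is a description of the values.

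Among 11 other genes of the LDL receptor family described here, 9 were tested, of which 2 rose and 0 fell. Over all genes tested, 2.12% rose and 8.83% fell by the same limma threshold. All adult samples lay above all E16.5 samples in 4 of the 9 and below in 1, against 7.39% and 31.0% of all genes tested. The median log2 change of the 9 was 0.78, against -0.86 for all genes tested and -0.38 for genes above 0 in all 6 samples. Lrp6, a coreceptor of WNT signalling, had 94.2, 81.3 and 103 FPKM in adult against 25.6, 35.8 and 27.4 FPKM at E16.5, a log2 change of 1.63 (standard error 0.31, adjusted p = 0.0221 by limma). Lrp10 had 51.1, 69.8 and 97.6 FPKM in adult against 30.3, 26.0 and 22.7 FPKM (log2 change 1.40, standard error 0.36, adjusted p = 0.0481 by limma). The ages did not overlap in either gene. Sorl1, a sorting receptor of endosomes, had 19.7 ± 10.4 FPKM in the adults and 4.43 ± 0.727 FPKM at E16.5 (SD, n = 3 each) and did not pass (1.78, limma adjusted p = 0.103), nor did Lrp5 (0.78, limma adjusted p = 0.261). In the other direction, Lrp4 had 0.0326, 0.216 and 0.0834 FPKM in adult against 1.81, 1.32 and 3.82 FPKM at E16.5 and did not pass (-1.51, limma adjusted p = 0.117). Lrp1b and Ldlrad3, too low to be tested, were also lower in every adult sample and at most 0.904 FPKM in any sample. Without E16.5 replicate 1, 2 or 3, neither call was left by limma (adjusted p = 0.0835, 0.0657 and 0.0740 for Lrp6 and 0.114, 0.137 and 0.139 for Lrp10). Lrp10 was also lost without adult replicate 1, 2 or 3 (adjusted p = 0.0503, 0.0685 and 0.0534). Rescaled to the same sum, the samples gave changes of 0.82 for Lrp6 and 0.59 for Lrp10 (limma adjusted p = 0.120 and 0.296). Over 15 alternatives, Lrp6 kept its call in 9 and Lrp10 in 3.

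**Figure D4:**
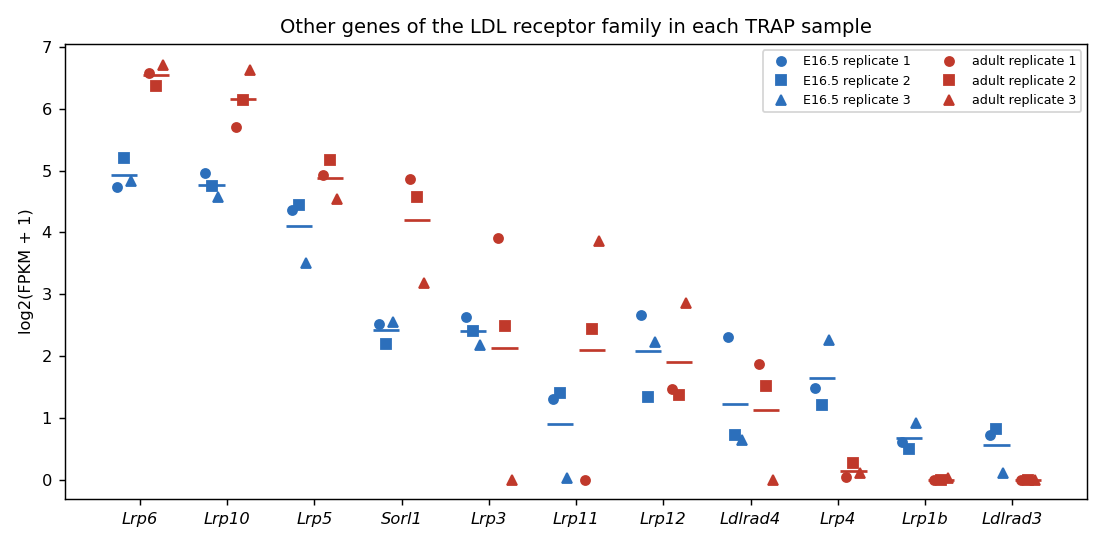
Level of 11 other genes of the LDL receptor family as log2(FPKM + 1), ordered by the adult mean, with 1 point per sample (blue E16.5, red adult, shape by replicate) and a bar at the mean of each age. Lrp6 and Lrp10, the 2 called genes, are higher in all adult samples, Lrp5 and Sorl1 lie higher and Lrp4 lower without passing the test.

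No partner of these receptors was called. Of 12 listed, 9 were tested, with a median log2 change of -1.49. All adult samples lay below all E16.5 samples in 5 of the 9, against 31.0% of all genes tested. Of these 5, Reln and Dab1 were listed at 0 in the adults and passed the filter on low values through E16.5 alone. By limma 0 had an adjusted p under 0.05 and 6 an unadjusted p under 0.05, as did 31.3% of all genes tested. Lrpap1, the chaperone that keeps new receptors free of ligand on their way to the surface, had 118, 141 and 71.1 FPKM in the adults and 207, 225 and 191 FPKM at E16.5 (log2 change -0.96, limma adjusted p = 0.0867). Mesdc2, a chaperone of LRP5 and LRP6, did not pass at -1.80 (limma adjusted p = 0.107), nor did Snx17, which returns LRP1 from endosomes, at -1.42 (limma adjusted p = 0.141). Mylip, the ubiquitin ligase that marks VLDLR and LRP8 for degradation, had 1.82 ± 2.69 FPKM in the adults and 10.8 ± 5.40 FPKM at E16.5 (SD, n = 3 each, limma adjusted p = 0.118). Dab2, the endocytic adaptor of megalin, was at 95.6 to 104 FPKM in adult and 48.5 to 71.8 FPKM at E16.5, also without a call (0.69, limma adjusted p = 0.147). Cubn, which forms a receptor with megalin in other epithelia, stayed at or below 2.64 FPKM, and Amn was listed at 0 in all samples.

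Reelin and its adaptor were seen mainly in E16.5 replicate 1. Reln, the ligand of the receptors encoded by Lrp8 and Vldlr, was listed at 0 in every adult sample and had 11.9, 1.30 and 1.24 FPKM at E16.5. Dab1, the adaptor that passes the signal on, was listed at 0 in the adults and had 14.7, 0.333 and 0.0529 FPKM at E16.5. Both were thus high in the same library, and neither was called (limma adjusted p = 0.136 and 0.352). That library had 11 of 14 neuronal and progenitor markers above 1 FPKM and a summed level of 171 FPKM for them, against 3 of 14 and 45.9 to 49.6 FPKM in the other E16.5 samples and 1 to 3 of 14 and 7.81 to 21.0 FPKM in the adults. The markers Slc17a7 and Eomes were listed at 0 in all samples. In that library Lrp8 was at 9.82 FPKM, against 7.89 to 8.82 FPKM in the other E16.5 samples, and Vldlr was at 17.4 FPKM, the lowest of the 3. The part of neuronal RNA in the Reln and Dab1 values was not tested.

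Apoc1 and Apoa2, apolipoproteins of plasma, were highest in adult replicate 3. Of 22 other apolipoproteins and enzymes of plasma lipids, 10 were tested and 0 were called by limma (2 with an unadjusted p under 0.05, against 31.3% of all genes tested), with a median log2 change of 0.47, and 7 were listed at 0 in all samples. Apoc1, a small exchangeable apolipoprotein, had 144, 28.1 and 902 FPKM in the adults and 178, 85.1 and 113 FPKM at E16.5. Apoa2, a protein of high-density lipoprotein, had 9.28, 1.12 and 365 FPKM in the adults and 25.8, 14.5 and 70.8 FPKM at E16.5. These genes were named after their values were seen. Summed over 6 other genes of plasma proteins made by liver, a list without apolipoproteins that was also written after the values were seen, the level was 355 FPKM in adult replicate 3, 56.9 and 13.4 FPKM in adult replicates 1 and 2, and 28.2 to 84.0 FPKM at E16.5. Alb, the albumin gene on that list, was at 34.0, 0.613 and 171 FPKM in adult. Apoe was at 1000 FPKM in adult replicate 3, between its values in the other adults. The part of RNA from elsewhere in these values, that of Apoe included, was not tested.

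Genes that supply and handle the lipids were called in both directions, and those called lower in adult were all listed at 0 there. Of 12 genes of the prostaglandin D2 pathway, 7 were tested, with a median log2 change of -2.14, and Ptgs1 was called lower in adult. Ptgs1 encodes cyclooxygenase 1, which makes the substrate of PTGDS, and was listed at 0 in the adults and at 10.3, 15.0 and 6.26 FPKM at E16.5 (limma adjusted p = 0.0198). It passed the filter on low values through E16.5 alone, and its adult zeros may be failed estimates, so that the call is a description only. It lost its call without E16.5 replicate 1, 2 or 3 (limma adjusted p = 0.0750, 0.0684 and 0.0573) and kept it in 10 of 15 alternatives. Of 8 tested genes of cholesterol efflux and the liver X receptors, 1 was called, and the median log2 change of the 8 was 0.29. Abca7, a transporter related to the main cholesterol exporter, was called higher in adult (12.5 ± 8.62 FPKM against 0.281 ± 0.0347 FPKM, SD, n = 3 each, log2 change 3.21, limma adjusted p = 0.0321). Its call was lost without adult replicate 1 and without each E16.5 replicate (limma adjusted p = 0.0689 to 0.116), and was kept in 10 of 15 alternatives.

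Late endosomes and lysosomes take apart the receptors' cargo. Of 12 tested genes listed for these compartments and for lipid storage, 3 rose and 0 fell, with a median log2 change of 0.58. The shares called over all genes tested were 2.12% and 8.83%, and their median log2 change was -0.86. Psap, the precursor of the saposins that present lipids to lysosomal enzymes, had 695, 817 and 691 FPKM in the adults and 167, 157 and 165 FPKM at E16.5. The samples of each age lay close together, and the log2 change of 2.16 (standard error 0.21, adjusted p = 0.00316 by limma) was called in all 15 alternatives. Scarb2, a lysosomal membrane protein, rose by 2.20 (limma adjusted p = 0.0238) and Lamp1, another, by 1.31 (limma adjusted p = 0.0357). Both lost the call without adult replicate 1 and without each E16.5 replicate (limma adjusted p = 0.0591 to 0.0886 for Scarb2 and 0.0608 to 0.117 for Lamp1). Lamp1 was also lost when samples were rescaled to the same sum (0.49, limma adjusted p = 0.290). Over 15 alternatives, Scarb2 kept its call in 11 and Lamp1 in 8. Among 10 tested genes listed as lipocalins, intracellular lipid carriers and related genes, Fabp3 and Crabp2 were called higher at E16.5 and listed at 0 in every adult sample. They encode a fatty acid binding protein and a retinoic acid binding protein. At E16.5 Fabp3 had 25.9, 15.9 and 24.4 FPKM (limma adjusted p = 0.00795) and Crabp2 had 65.9, 14.7 and 23.7 FPKM (limma adjusted p = 0.0108), and without each E16.5 replicate their adjusted p lay between 0.0542 and 0.0617. Both passed the filter on low values through E16.5 alone, and their adult zeros may be failed estimates, as may those of Ptgs1. The third call of that list was Ttr, whose protein is neither a lipocalin nor intracellular. It was called higher in adult and, listed at 0 at E16.5, passed the filter through the adults alone.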

How the data were processed

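TRAP-seq of ChP from 3 adult and 3 E16.5 samples was analysed, with ages taken from the labels. By the methods, the authors aligned single-end reads with STAR (version 2.4.0 in the submitters' processing notes) to mm10 and deposited gene FPKM made with Cuffquant of Cufflinks. The annotation used is not given in the sources used here. Genes with a mean deposited FPKM above 1 entered a limma fit (version 3.58.1, R 4.3.3) of log2(FPKM + 1) with a trend on intensity, and a gene was called at a Benjamini-Hochberg adjusted p under 0.05. A count test was not used, since FPKM are not counts. Ratios were compared by exact permutation tests. Read steps came from 2523 genes of 1 transcript, with 43 to 65 low values per library, of which 64.6% to 81.2% lay within 0.1 of a whole read (20% by chance). Coordinates are from GENCODE on mm10.

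The genes, lists, motifs and tests were chosen with earlier results of these data known. Named were the 9 genes, genes of the receptor and partner lists, up to 3 called genes per direction of each other list, and the 2 nearest patterns, with exceptions stated. Lists were receptors, partners, apolipoproteins, efflux, late endosomes with lipid storage, prostaglandin D2, lipocalins with other carriers and cell markers. Some genes and results are not reported here, and the counts and medians of the lists leave those genes out. Markers of mesenchyme summed to 21.9 to 47.3 FPKM in adult and 105 to 136 at E16.5, of astrocytes and ependyma to 88.9 to 115 and 226 to 249, of macrophages to 0.0695 to 7.35 and 0.584 to 8.48, of oligodendrocytes to 4.86 to 73.0 and 8.12 to 23.1, and of red blood cells to 0 to 6.49 and 54.1 to 324. Their part in the results was not tested. Alternatives were the pseudocount, filter, scaling, trend, replicate block and each sample left out.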

Additional observations from a re-analysis of the deposited data

How the results depend on the processing

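The calls over all genes tested were 246 with adult and 1024 with E16.5 as the higher age. Rescaling to the same sum gave 111 and 3035, quantile normalization 569 and 504, median-ratio scaling 658 at E16.5 and limma without a trend 158 in adult. With each sample left out the counts ranged from 27 to 357 and from 16 to 1704. Labels numbered the replicates, and deviations of same-numbered samples correlated at 0.00089, 0.044 and 0.015, against -0.029 to 0.013 for the other pairs. Whether same-numbered samples shared a batch cannot be told from these values. A replicate block left 112 and 452 calls and 0 of the 9 genes. Ptgds, the 1 call among the 9, was kept in 6 of 15 alternatives. The adult count of the 9 was 0 with no filter on low values, after both rescalings of the sum and in limma without a trend, 2 under median-ratio scaling and quantile normalization, and 0 to 1 with each sample left out. At E16.5 it was 0, and 1 with a pseudocount of 0.1, with no filter and without a trend, 2 after rescaling to the same sum, and 0 with each sample left out. Without both adult replicate 3 and E16.5 replicate 1, chosen after seeing the data, 0 were called by limma in adult (adjusted p = 0.121 for Ptgds). The sign turned for Apoe (-0.73 after rescaling to the same sum, -0.062 without Mir6236 in it, and -0.084 without E16.5 replicate 3, with 0.28 the highest value with a sample left out), Clu (-0.71 and -0.044 under these rescalings) and Vldlr (-0.63 after rescaling, -0.12 without adult replicate 2, with 0.34 the highest). With each sample left out, the log2 ratio difference ranged from -0.19 to 0.23 for Clu to Apoe and from -1.27 to 0.25 for Apod to Ptgds, whose signs turned without E16.5 replicate 1 or adult replicate 1 or 2 (-0.19, -0.11 and -0.03) and without adult replicate 1 or 3 (0.08 and 0.25). The causes were not tested. A read was worth 0.114 to 0.324 FPKM per kilobase in adult and 0.0636 to 0.0807 at E16.5, so that low adult values were the least precise.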
